A study of Homo sapiens with 6 samples.

Results

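The 9 Polycomb genes EZH1, EZH2, SUZ12, EED, RBBP7, BMI1, RING1, RNF2 and CBX2 were followed in JHH-4, an established human line of liver cancer cells (hepatocellular carcinoma), epithelial-like by its label. They were taken by gene name, and all 9 were among the 14034 rows of the count table. Messenger RNA was counted in 3 libraries labelled as overexpressing miR-885-5p, for which the design names a plasmid with the primary microRNA, and in 3 Control libraries labelled wild type. Whether Control cells were given an empty plasmid is unknown here, so effects of plasmid and microRNA cannot be told apart. The libraries are described as technical replicates, and p-values therefore cover the scatter of such libraries and not that of separate cultures.

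Polycomb proteins keep genes silent by modifying histones. In Polycomb repressive complex 2 (PRC2), EZH2 or its paralog EZH1 adds methyl groups to a lysine of histone H3, and works only when bound to SUZ12 and EED, with RBBP7 or RBBP4 holding the histone. In complex 1 (PRC1), the ubiquitin ligases RNF2 (also called RING1B) or RING1 modify histone H2A together with a PCGF protein such as BMI1, and a CBX protein such as CBX2 reads the methyl mark. EZH2 is best known in liver cancer as a gene of dividing cells with high levels in tumours, whereas EZH1 is also made in resting cells.

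Total counts ran from 46382314 to 56409821 per library. Control library 3 stood apart from the other 5 on the second principal component, and results that depend on it are given with and without it. Epithelial keratins were abundant: KRT8 averaged 1409 ± 23.2 CPM (counts scaled to library size, here by the TMM method) with miR-885-5p and 1725 ± 3.57 CPM in Control (SD, n = 3 each). The hepatocyte genes ALB, AFP, APOB, TTR, TF, HNF4A and GPC3 were not among the rows with a gene name. Nor were the epithelial genes CDH1 and EPCAM and the leukocyte genes PTPRC and CD3E. The 1614 rows without a gene name were not searched for these genes. The hepatocyte gene FGB averaged 4.49 ± 0.757 CPM with miR-885-5p and 20.7 ± 1.03 CPM in Control. SERPINA1 averaged 8.41 ± 1.34 CPM with miR-885-5p and 8.86 ± 0.641 CPM in Control. Of the leukocyte markers present, CD68, which other cells also make, averaged 125.6 ± 1.88 CPM with miR-885-5p and 128.6 ± 11.1 CPM in Control and was not called, and CD14 averaged 0.785 ± 0.282 CPM with miR-885-5p and 1.41 ± 0.310 CPM in Control and was called lower (edgeR adjusted p = 0.0410). The endothelial gene PECAM1 averaged 1.51 ± 0.265 CPM with miR-885-5p and 0.719 ± 0.257 CPM in Control, and the fibroblast gene LUM 4.63 ± 0.400 CPM with miR-885-5p and 2.86 ± 0.387 CPM in Control, both called higher, while the fibroblast gene COL1A1, at 5.34 ± 0.228 CPM with miR-885-5p and 4.78 ± 1.95 CPM in Control, was not called. CDH5, VWF, COL1A2 and DCN were not among the rows with a gene name, and the part of other cell types in the results was not tested.

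A microRNA binds messenger RNAs mainly through its seed, bases 2 to 8. The sequence of miR-885-5p (RefSeq, GRCh38.p14, chr3:10394531-10394552, minus strand) is shown first with the seed in capitals. It is followed by the only seed matches in the longest annotated 3′ UTRs of the 9 genes (GENCODE 29, GRCh38), with the matching bases in capitals and up to 9 bases on each side.
hsa-miR-885-5p: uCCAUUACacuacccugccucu
SUZ12, 6mer match, chr17:32000327-32000332, plus strand: taagctttcTAATGGtgtcttcag
RNF2, 7mer-A1 match, chr1:185101149-185101155, plus strand: taccagagaTAATGGAgatattttg
RBBP4, not one of the 9 genes but the paralog of RBBP7, holds the longest type of match, an 8mer, and is shown for comparison.
RBBP4, 8mer match, chr1:32681418-32681425, plus strand: taaacccatGTAATGGAaattggcta

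None of the 9 genes held the stronger 7mer-m8 (GTAATGG) or 8mer (GTAATGGA) match, in its longest or in any annotated 3′ UTR. Of 12308 genes with a 3′ UTR, 8.01% held one in the longest. The RNF2 match (TAATGGA) and the SUZ12 match (TAATGG) are of weaker types, and 30.4% of genes held a match of some type. The EZH2 UTR is short, 262 bases at its longest, while those of CBX2, RNF2, EZH1 and SUZ12 reach 2941, 2307, 2257 and 2042 bases. The RBBP4 8mer match lies at base 1713 of a UTR of 6506 bases and is present in 1 of its 6 annotated UTRs. The same UTR also holds a 7mer-A1 match at base 3654.

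The comparison asked how messenger RNA of these genes differed when miR-885-5p was raised. Of the 9 genes, EZH2, SUZ12, RBBP7 and CBX2 fell, RNF2 rose, and EZH1, EED, BMI1 and RING1 did not pass the threshold of 0.05 on the adjusted p (edgeR quasi-likelihood test, adjusted over all rows). That is 5 of 9, while 52.9% of all rows passed it, so the share of Polycomb genes called was near that of the table as a whole. The 4 lower genes compare with 26.5% of rows called lower, and the 1 higher gene with 26.3% called higher. CPM of the groups did not overlap for 6 of the 9 genes, against 60.5% of rows. The median log2 fold change of the 9 genes was -0.19 and that of all rows -0.0006.

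**Figure D1:**
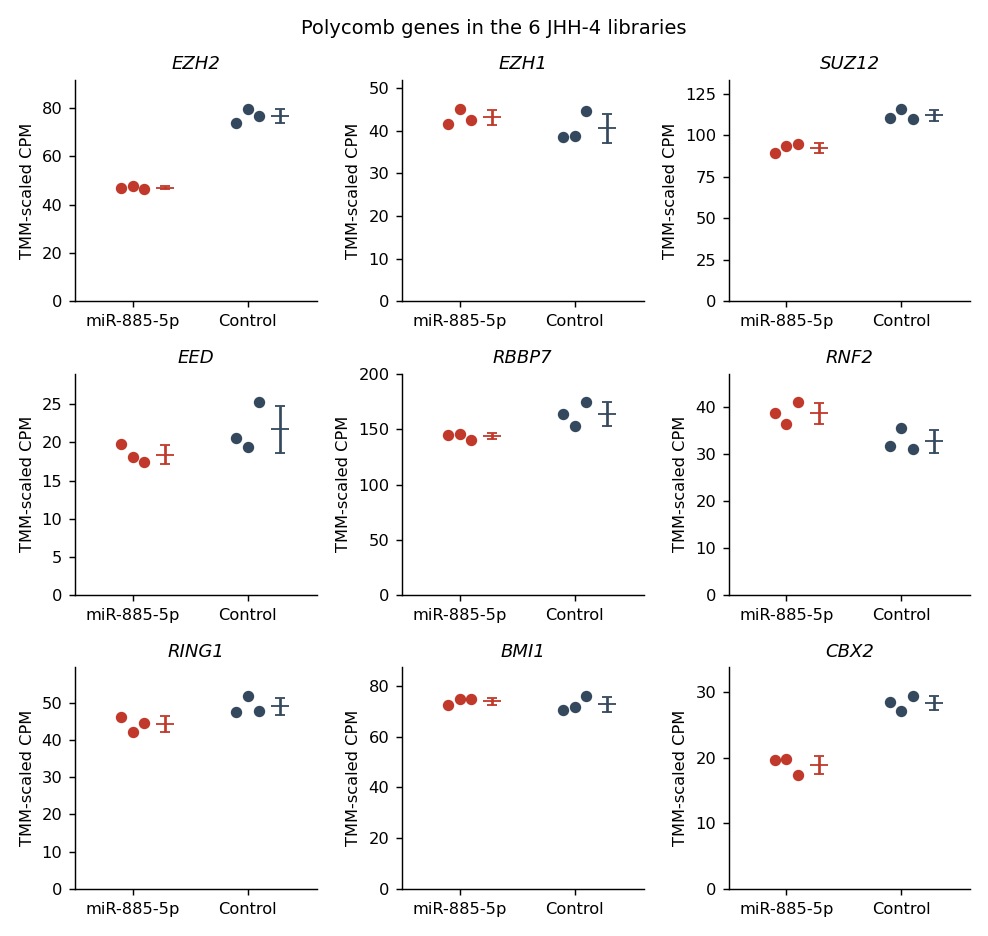
TMM-scaled CPM (y axis, from 0) of each Polycomb gene in the 3 miR-885-5p libraries (red) and the 3 Control libraries (grey-blue), where points are libraries and bars are the mean and SD. EZH2 and CBX2 show the widest gaps relative to their level, while the groups of EZH1, EED and BMI1 overlap.

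EZH2 (chr7:148807383-148884321, minus strand) changed most of the 9 genes, and its paralog EZH1 (chr17:42700275-42745049, minus strand) was not called. EZH2, the main methyltransferase of PRC2, had 46.7, 47.9 and 46.6 CPM in the miR-885-5p libraries, against 73.7, 79.7 and 76.8 CPM in the Control libraries. Every miR-885-5p library lay below every Control library, with a log2 fold change of -0.70 (SE 0.05, edgeR adjusted p = 2.02e-06), so that EZH2 messenger RNA fell by 38.6%. A larger absolute log2 fold change was found for 11.7% of all rows.

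EZH1 had 41.7, 45.2 and 42.6 CPM in the miR-885-5p libraries, against 38.5, 38.8 and 44.6 CPM in the Control libraries. Control library 3 lay among the miR-885-5p libraries, and the log2 fold change was 0.09 (SE 0.07, edgeR adjusted p = 0.302). Without Control library 3 it was 0.16 and passed the threshold (edgeR adjusted p = 0.0310).

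The balance of both methyltransferases was read within each library. For each EZH1 count there were 1.12, 1.06 and 1.10 EZH2 counts in the miR-885-5p libraries, against 1.91, 2.05 and 1.72 in the Control libraries. This ratio does not depend on how libraries are scaled to each other, and its log2 value differed by -0.79 between groups that did not overlap. Counts do not allow for gene length. With the authors' FPKM, which do, the ratio was 1.48 to 1.81 with miR-885-5p and 2.96 to 3.52 in Control. An exact permutation test of 3 against 3 libraries (two-sided) gave p = 0.10, the smallest it can give, also after adjustment over 3 such ratios.

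EZH2 fell together with markers of dividing cells. Of 8 proliferation genes (MKI67, PCNA and the helicase genes MCM2 to MCM7) all were called lower, against 26.5% of all rows. Their log2 fold changes ran from -0.95 to -0.51. Their summed level was 1486 to 1509 CPM with miR-885-5p and 2482 to 2523 CPM in Control. Their part in the fall of EZH2 was not tested, and in bulk RNA fewer cells that express a gene and less of its RNA per cell cannot be told apart.

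SUZ12 (chr17:31937018-32001045, plus strand), which PRC2 needs to be stable and active, fell with a smaller fold change than EZH2. It had 89.2, 93.5 and 95.1 CPM in the miR-885-5p libraries, against 110.3, 116 and 109.8 CPM in the Control libraries. The groups did not overlap, and the log2 fold change was -0.28 (SE 0.04, edgeR adjusted p = 0.000414). Within each library EZH2 had 0.491 to 0.523 counts per SUZ12 count with miR-885-5p and 0.668 to 0.700 in Control, a difference of -0.43 on the log2 scale that was added after the values were seen and not tested. GENCODE 29 names a transcribed pseudogene, SUZ12P1, whose reads may be split with SUZ12 by the authors' counting.

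EED (chr11:86244544-86278813, plus strand) binds the methyl mark that PRC2 makes. It had 19.8, 18.1 and 17.4 CPM in the miR-885-5p libraries, against 20.5, 19.4 and 25.2 CPM in the Control libraries. The groups overlapped and Control library 3 was the highest of all. The log2 fold change of -0.24 (SE 0.10) did not pass the threshold (edgeR adjusted p = 0.0719). It was -0.12 (adjusted p = 0.242) without Control library 3, but -0.32 and past the threshold without Control library 2 (edgeR adjusted p = 0.0238), and DESeq2 gave adjusted p = 0.0434 with all libraries.

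RBBP7 (chrX:16839283-16870414, minus strand), a histone chaperone that PRC2 shares with other complexes, fell by little. It had 144, 146 and 140 CPM in the miR-885-5p libraries, against 164, 153 and 174 CPM in the Control libraries. All miR-885-5p libraries lay below the Control libraries, with a log2 fold change of -0.19 (SE 0.05, edgeR adjusted p = 0.00874). On the authors' FPKM the groups overlapped, and limma on log2(FPKM + 0.1) gave -0.13 (adjusted p = 0.140).

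RBBP4, which takes the same place in PRC2, fell with a larger fold change: it averaged 152 ± 6.98 CPM with miR-885-5p and 218 ± 2.93 CPM in Control (SD, n = 3 each; log2 fold change -0.52, SE 0.04, edgeR adjusted p = 6.39e-06). RBBP4 is the gene with the 8mer match shown above, and the part of that match in its fall was not tested. It has 6 processed pseudogenes in GENCODE 29 and shares 1706 exonic bases with SYNC on the opposite strand. The number of RBBP7 counts per RBBP4 count was 1.00, 0.951 and 0.887 in the miR-885-5p libraries, against 0.753, 0.712 and 0.789 in the Control libraries. These groups did not overlap, with a difference of 0.33 on the log2 scale and exact permutation p = 0.10, again the smallest possible.

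Among the PRC1 genes, RNF2 rose and its paralog RING1 just missed the threshold on the lower side. RNF2 (chr1:185045364-185102608, plus strand) had 38.6, 36.4 and 40.9 CPM in the miR-885-5p libraries, against 31.6, 35.5 and 31.0 CPM in the Control libraries. It was the 1 gene of the 9 called higher, with a log2 fold change of 0.24 (SE 0.07, edgeR adjusted p = 0.0151). The call was lost without miR-885-5p library 3 and without Control library 1, where the log2 fold change was 0.20 and 0.22 and edgeR gave adjusted p = 0.0599 in both.

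RING1 (chr6:33208495-33212722, plus strand) had 46.2, 42.1 and 44.6 CPM in the miR-885-5p libraries, against 47.4, 51.7 and 47.8 CPM in the Control libraries. The groups did not overlap but the log2 fold change of -0.15 (SE 0.06) missed the threshold (edgeR adjusted p = 0.0551). Without Control library 3 it was -0.16 and past the threshold (edgeR adjusted p = 0.0404). On the authors' FPKM the RING1 groups overlapped, and limma on log2(FPKM + 0.1) gave -0.09 (adjusted p = 0.198). RNF2 counts per RING1 count were 0.835, 0.866 and 0.916 in the miR-885-5p libraries, against 0.667, 0.686 and 0.648 in the Control libraries. The ratio was higher in all miR-885-5p libraries, by 0.39 on the log2 scale, with exact permutation p = 0.10.

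**Figure D2:**
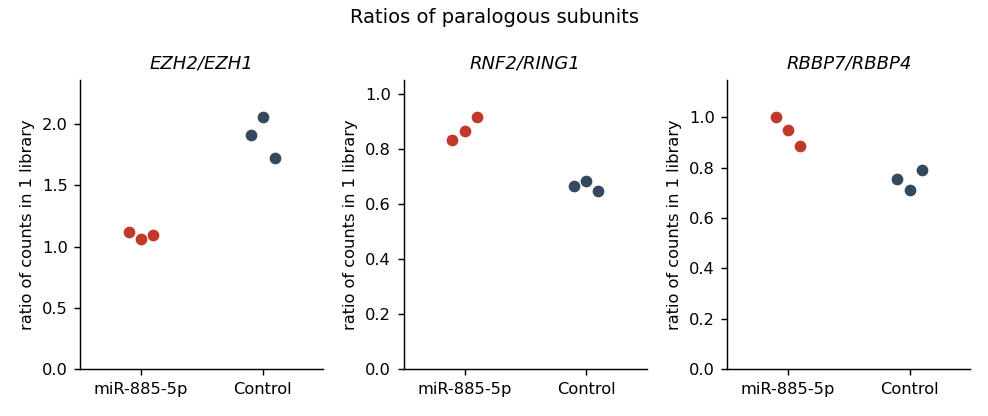
Ratio of the counts of 2 paralogs within each library (y axis, from 0) for EZH2 over EZH1, RNF2 over RING1 and RBBP7 over RBBP4, where points are the 3 miR-885-5p libraries (red) and the 3 Control libraries (grey-blue). EZH2 over EZH1 was lower with miR-885-5p, and the other ratios were higher, with no overlap between groups.

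BMI1 (chr10:22321211-22331484, plus strand), a PCGF protein that activates the ligases, had 72.4, 74.9 and 74.7 CPM in the miR-885-5p libraries, against 70.6, 71.6 and 75.9 CPM in the Control libraries. The groups overlapped, with a log2 fold change of 0.03 (SE 0.04, edgeR adjusted p = 0.650). BMI1 shares 1000 exonic bases with the readthrough gene COMMD3-BMI1, whose reads may be split with it. Of the other PCGF genes, PCGF1, PCGF2, PCGF3, PCGF5 and PCGF6, PCGF1 and PCGF2 had an unadjusted edgeR p under 0.05 but missed the adjusted threshold, as did the other 3. Their log2 fold changes ran from -0.02 for PCGF5 to 0.22 for PCGF6. CPM of the groups did not overlap for PCGF1 and PCGF3, as for 60.5% of all rows.

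CBX2 (chr17:79778132-79787983, plus strand), a reader of the PRC2 mark, had the second largest fall. It had 19.6, 19.9 and 17.3 CPM in the miR-885-5p libraries, against 28.5, 27.2 and 29.4 CPM in the Control libraries. The groups lay well apart, with a log2 fold change of -0.58 (SE 0.07, edgeR adjusted p = 9.08e-05), so that CBX2 fell by 33.2%.

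The paralog CBX8 lies next to CBX2 on chromosome 17 (chr17:79792132-79801683, minus strand). CBX8 averaged 20.84 ± 1.302 CPM with miR-885-5p and 19.99 ± 2.581 CPM in Control (SD, n = 3 each), with a log2 fold change of 0.06 (SE 0.10, edgeR adjusted p = 0.627). CBX2 counts per CBX8 count were 0.883 to 0.958 with miR-885-5p and 1.29 to 1.52 in Control, a ratio added after the values were seen and not tested. CBX6 and CBX7, on another chromosome, fell by 0.24 each on the log2 scale (edgeR adjusted p = 0.00586 and 0.0118). These CBX genes other than CBX2 were chosen after their values were seen.

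On the scale of the authors' FPKM, which is per length, the order of the 9 genes differed between groups, with EZH2, RING1, BMI1, RNF2, EZH1 and EED at other ranks. In the miR-885-5p libraries RBBP7 was highest at 66.9 FPKM on average, followed by RING1 at 23.7, BMI1 at 21.2, SUZ12 at 19.7, EZH2 at 16.4, RNF2 at 10.2, EZH1 at 9.75, EED at 8.69 and CBX2 at 3.97 FPKM. In the Control libraries RBBP7 was highest at 73.4 FPKM, followed by EZH2 at 26.1, RING1 at 25.2, SUZ12 at 22.6, BMI1 at 20.4, EED at 9.51, RNF2 at 8.39, EZH1 at 8.04 and CBX2 at 5.71 FPKM. EZH2 thus had rank 5 with miR-885-5p and rank 2 in Control, where its range overlapped that of RING1. BMI1 lay above SUZ12 with miR-885-5p and below it in Control, without overlap of their ranges in either group. EED had rank 8 with miR-885-5p and rank 6 in Control. The ranges of neighbours among RNF2, EZH1 and EED overlapped in both groups, and those of all other neighbours except EZH2 and RING1 in Control did not. The order depends on the length used: with CPM per kilobase of all annotated exons, RING1 had rank 1 and EZH2 rank 5 in both groups.

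**Figure D3:**
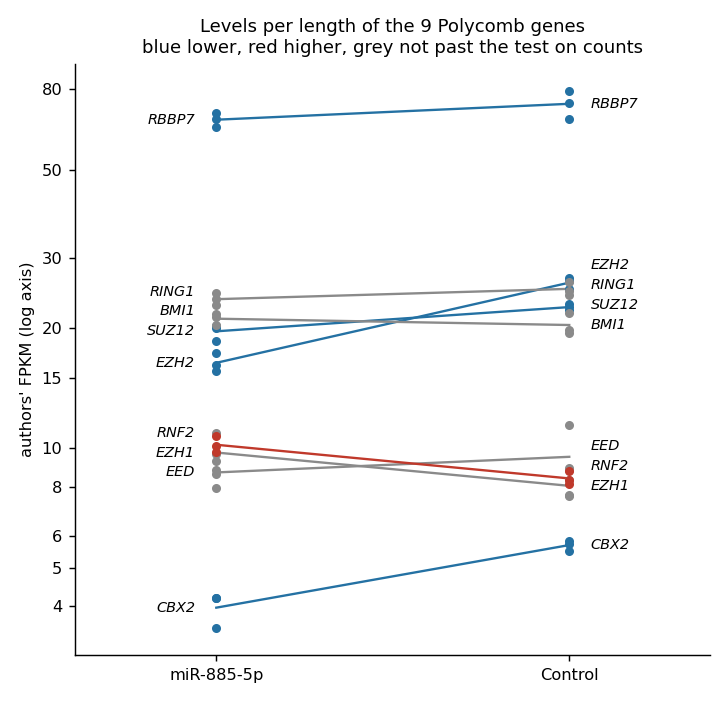
Authors' FPKM (y axis, log scale) of the 9 Polycomb genes, where points are the 3 libraries of each group and lines join the group means, coloured by the call on counts. EZH2 averages 16.4 FPKM with miR-885-5p and 26.1 FPKM in Control, and its line crosses those of RING1, SUZ12 and BMI1.

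E2F factors drive genes of DNA replication, and EZH2 and EED have been described as their targets. RefSeq promoters (GRCh38.p14, 250 bases before to 50 after the start) were found for 8 of the 9 genes, 11 promoters in all, since some genes have several starts. For CBX2 no promoter sequence was at hand. They were searched on both strands for the E2F-type words TTTCCCGC, TTTCGCGC, TTTGCCGC and TTTGGCGC. A word was present in 3 promoters, and in 3.31% of all 35116 promoters and 4.76% of those of genes in the table. The 30 bases around each match are shown, written in the direction of the gene, with the word in capitals.
EZH2, chr7:148884272-148884301, minus strand: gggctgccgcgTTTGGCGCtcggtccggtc
SUZ12, chr17:31936807-31936836, plus strand: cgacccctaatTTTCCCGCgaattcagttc
EZH1, chr17:42745137-42745166, minus strand: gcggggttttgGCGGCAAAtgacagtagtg
The EZH2 word starts at base 2 after the start, the SUZ12 word 189 bases before it, and the EZH1 word, on the opposite strand as its reverse complement, 115 bases before it. EZH2 and SUZ12 were among the genes called lower, and EZH1 was not called. RBBP7, also called lower, had no word in its promoters, nor had EED, the other EZH2 promoter, BMI1, RING1 or RNF2. The part of these words in the changes was not tested. The word TTTGAA, the core of the CHR element of cell cycle genes, was in the promoter of 1 gene, SUZ12. It was in 15.2% of all promoters and 10.8% of those of genes in the table. A match is a description of the letters and not evidence of binding.

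The rest of the Polycomb system went both ways. Of 37 other Polycomb genes tested, 10 rose, 11 fell and 16 did not pass the threshold, or 56.8% called, again near the 52.9% of all rows. All rows were split in much the same way, with 26.3% called higher and 26.5% called lower. On the authors' FPKM, limma on log2(FPKM + 0.1) called 10 of them higher and 6 lower, against 3777 and 2679 of all rows.

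Among 8 other PRC2 subunits and partners 3 rose and 3 fell, or 75.0% called against 52.9% of all rows. Their median log2 fold change was -0.03. The Tudor-domain proteins that bring PRC2 to its targets moved apart. MTF2 averaged 31.1 ± 2.11 CPM with miR-885-5p and 44.8 ± 0.886 CPM in Control (log2 fold change -0.53, SE 0.06), and PHF19 averaged 137 ± 1.14 CPM with miR-885-5p and 165 ± 7.40 CPM in Control (log2 fold change -0.26). PHF1 averaged 48.3 ± 0.988 CPM with miR-885-5p and 37.2 ± 2.99 CPM in Control (log2 fold change 0.38, SE 0.06). JARID2 and EPOP, alternative partners of PRC2 chosen after their values were seen, rose by 0.48 and 0.68. AEBP2 and LCOR had log2 fold changes of 0.02 and -0.08 and were not called. Adjusted p in edgeR was 0.00764 or lower for each of the 6 called genes.

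Among 22 other PRC1 subunits 5 rose, 6 fell and 11 did not pass the threshold, with a median log2 fold change of 0.04. Of all rows 52.9% were called, 26.3% higher and 26.5% lower. The share of these subunits called was thus near that of the table as a whole, in both directions. Of the polyhomeotic genes PHC1 and PHC3 rose and PHC2 fell. PHC1 averaged 75.8 ± 2.13 CPM with miR-885-5p and 55.6 ± 3.21 CPM in Control (log2 fold change 0.45, SE 0.05, edgeR adjusted p = 7.26e-05), while PHC2 averaged 199.7 ± 3.50 CPM with miR-885-5p and 240.8 ± 6.42 CPM in Control (log2 fold change -0.27, edgeR adjusted p = 0.000183). PHC3, named after its values were seen, changed by 0.21 (edgeR adjusted p = 0.0203). BCOR, a scaffold of variant PRC1, changed by -0.48 and RYBP, which replaces the CBX protein in variant PRC1, by 0.30 (edgeR adjusted p = 0.000257 and 0.00156).

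Enzymes that remove the marks and their cofactors were likewise divided, with 2 of 7 higher and 2 lower. That is 57.1% called, near the 52.9% of all rows, of which 26.3% were higher and 26.5% lower. KDM6B, a demethylase of the PRC2 mark, averaged 15.9 ± 0.571 CPM with miR-885-5p and 11.1 ± 1.32 CPM in Control (log2 fold change 0.52, SE 0.09, edgeR adjusted p = 0.00116). Its paralog KDM6A changed by -0.27 (edgeR adjusted p = 0.0202). ASXL2, a cofactor of the deubiquitinase BAP1, rose by 0.24 and MYSM1, a histone H2A deubiquitinase, fell by 0.36 on the log2 scale (edgeR adjusted p = 0.00164 and 0.00324). BAP1 itself had a log2 fold change of 0.01 (edgeR adjusted p = 0.848).

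**Figure D4:**
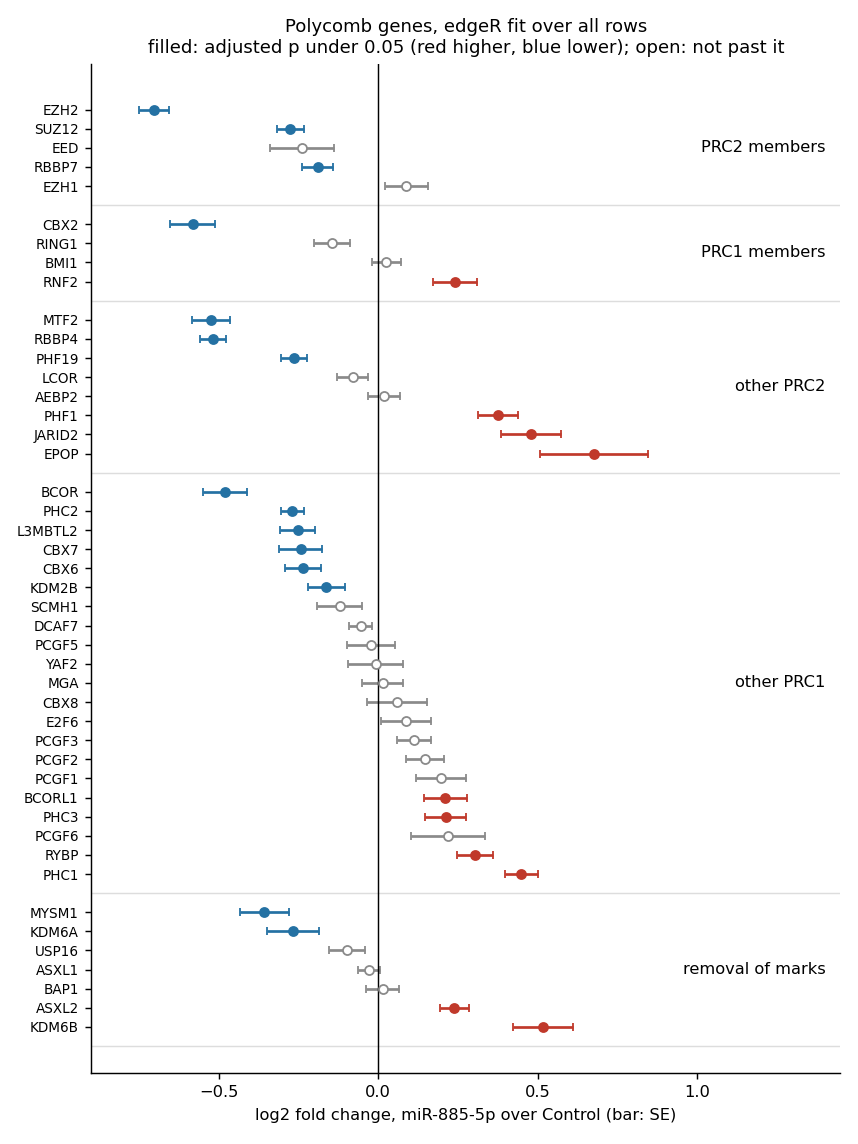
Log2 fold change of miR-885-5p over Control (x axis, bars are SE derived from the edgeR test) for the 9 Polycomb genes and other Polycomb genes by group. Points are filled where the adjusted p was under 0.05. EZH2 at -0.70 and CBX2 at -0.58 are the lowest points, and higher and lower genes occur in every group except the PRC2 members, where none is higher.

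Genes that Polycomb is known to silence were counted last. Of 39 HOX genes, the classical targets, 8 were among the rows with a gene name, of which 2 rose and 6 did not pass the threshold. The share that rose, 25.0%, was near the 26.3% of all rows called higher, and 52.9% of all rows were called in either direction. HOXA3 averaged 114 ± 3.45 CPM with miR-885-5p and 69.1 ± 9.12 CPM in Control (log2 fold change 0.73, SE 0.08, edgeR adjusted p = 5.78e-05), and HOXB13 rose by 0.56 (edgeR adjusted p = 0.000744). HOXB6 and HOXB5 had log2 fold changes of -0.27 each and were not called (edgeR adjusted p = 0.0548 and 0.0775), and the median of the 8 genes was -0.09. Of the neighbouring INK4 genes, which BMI1 is known to repress, CDKN2B rose by 0.78 and CDKN2A had a log2 fold change of -0.11 that missed the threshold (edgeR adjusted p = 0.0854).

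In the authors' deposited table, p was under 0.05 for 7 of the 9 genes. These were the 5 genes called here and also EED and RING1, and the p-values of that table carry no stated adjustment. The share of all rows with such a p was not counted, so the 7 of 9 has no background to be read against. The 52.9% of all rows called in the edgeR fit comes from another test and is after adjustment, so it is not that share.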

How the data were processed

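RNA-seq was measured in 6 libraries of JHH-4 cells, prepared with an NEBNext Ultra RNA kit per the labels' protocols. The strand setting, counting tool and annotation release were not stated in the sources used here. Among the tools listed in the submitters' processing notes, without roles, are StringTie 2.2.1, HISAT2 2.0.4 and DESeq2 1.38.3, with genome build GRCh38. The deposited values are raw counts for every gene and library, per the file headers. Beside them the authors gave FPKM for each library, and for each gene a log2 fold change and a p-value from a test the file headers leave unnamed. Every row summed to at least 194 counts, so weak genes had been left out before deposit.

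Groups came from the sample titles. All 14034 rows, of which 88.5% have a gene name, entered a quasi-likelihood fit in edgeR 4.0.16 (R 4.3.3) after TMM scaling; filterByExpr removed no row. This was followed by tests with Benjamini-Hochberg adjustment and a threshold of 0.05. A positive log2 fold change means higher with miR-885-5p. The SE given with it is its absolute value divided by the square root of the quasi-likelihood F statistic. The fit was tested on simulated data. Replicates differed by more than sampling noise (chi-square per degree of freedom 7.95 to 40.5 within groups, 96.0 to 136 between them). Log2 ratios of 2 genes within a library were compared with an exact permutation test. Seed matches were searched in GENCODE 29 transcripts. The 9 genes, the gene lists and the alternatives were chosen with earlier results of these data known. Named genes are the 9 genes, RBBP4, and in each other Polycomb list the 4 called genes with the smallest adjusted p. Of the HOX genes the 4 with the smallest adjusted p are named, called or not, and of the INK4 genes both. Other Polycomb genes named (CBX and PCGF paralogs, PHC3, JARID2, EPOP, AEBP2, LCOR and BAP1) were chosen after their values were seen. Alternatives tried included DESeq2 1.42.0, limma-voom (limma 3.58.1), 3 other scalings, other filters, rows with a gene name only, the replicate number as a block and leaving out each library; limma on log2(FPKM + 0.1) and log2(FPKM + 1) was added after the data were seen. Some single genes of the lists are counted but not reported here.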

Additional observations from a re-analysis of the deposited data

How the results depend on the processing

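EZH2, SUZ12 and CBX2 kept their direction and their calls under all 17 alternatives, with log2 fold changes from -0.73 to -0.64, -0.29 to -0.19 and -0.62 to -0.43. BMI1 was called under none of them (edgeR, DESeq2 and limma adjusted p from 0.208 to 0.953). No gene changed direction. The alternatives without a filter and with a filter at 1 CPM in 3 libraries left out no row. They repeated the edgeR fit and are no separate check. The number of Polycomb genes called was 5 in the edgeR fit, 4 to 7 without 1 library, 6 with DESeq2 and 4 with limma on FPKM; the calls that differed were those of EED, EZH1, RING1, RNF2 and RBBP7, and the cause was not tested. Same-numbered libraries did not deviate together (correlations of -0.18, -0.06 and -0.15), so the numbers were not taken as pairs; with the replicate block 5 Polycomb genes, 19 other Polycomb genes and 6695 rows were called, against 5, 21 and 7423 without it. Total-count scaling moved the median of all rows to 0.05 and called 4357 rows higher and 3134 lower. The order by level kept 5 of 9 places with miR-885-5p and 0 of 9 in Control when CPM per kilobase of annotated exons replaced FPKM. The ratios kept their sign under every alternative run. With 3 libraries a group, small changes such as those of EED and RING1 lie near what the spread allows to be called.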

Other observations

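The authors' FPKM and the counts did not move together for EZH1. EZH1 averaged 9.75 ± 1.16 FPKM with miR-885-5p and 8.04 ± 0.747 FPKM in Control (SD, n = 3 each), a log2 ratio of means of 0.28, whereas the fit on counts gave 0.09. FPKM per CPM of EZH1 was 0.263, 0.214 and 0.203 in the miR-885-5p libraries, against 0.199, 0.195 and 0.200 in the Control libraries, so that miR-885-5p library 1 lay highest. The highest of the 6 values was 1.34 times the lowest for EZH1, and 1.05 to 1.14 times for the other 8 Polycomb genes. Among 10738 rows with at least 5 CPM in every library the median of this quotient was 1.08, and 4.52% of rows reached the value of EZH1. The table holds no transcript-level values, and the part of transcript lengths in this difference was not tested.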
